A study of Mus musculus with 28 samples.

Results

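Histones package DNA: H2A, H2B, H3 and H4 form the nucleosome core, and the linker histone H1 binds the DNA that enters and leaves it. Most mouse histone genes are replication-dependent, clustered, without introns, and transcribed mainly in S phase. Their mRNA normally ends just after a short stem-loop that binds SLBP and carries no poly-A tail, so libraries made by poly-A selection capture only the share that is tailed; here mRNA was purified on magnetic beads, whose bait the labels do not name. Some of these genes also give longer, tailed transcripts in differentiated, non-dividing tissue such as liver, and H1f0 is a linker histone gene whose mRNA is always tailed and which is known for its expression in resting, differentiated cells.

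The genes were chosen by symbol (H1f, H2ac, H2bc, H3c or H4c with a number, or the older Hist names) and by measured level: at least 3 libraries of one of the 3 deposited tables had to reach 1 CPM, a count scaled to a common library total. Of 79 symbols that matched by name, 19 met this level. They were 4 H1, 6 H2A, 4 H2B, 2 H3 and 3 H4 genes. On chromosome 13 lay 11 of them and on chromosome 3 lay 5, with H1f0 on chromosome 15 and H2aw on chromosome 11. H2ac25, a symbol of the liver table alone, could not be paired with a gene model; it may be the same gene as H2aw, a symbol of the culture tables alone, and then 18 genes, 5 of them H2A, would have met the level. The level was met in the livers by 14 genes, in the NFATc3-MKI table by 12 and in the ASK1-MKI table by 7. Just inside the rule stood H4c17, at 1.04 CPM in the third highest liver, and just outside it H4c14 and H4c18, at 0.94 and 0.922 CPM in the third highest NFATc3-MKI or control culture. Because a gene can meet such a rule through the groups in which it is high (H3c15 reached 1 CPM in 12 livers and H4c17 in 3, in no liver labelled ASK1-MKO and in no culture), the counts of genes below are descriptions.

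RNA was sequenced from 16 whole livers and 12 cultures of bone marrow-derived macrophages (BMDMs). The livers came from male mice that were 8 weeks old when a methionine- and choline-deficient (MCD) diet began, which lasted 4 weeks and produces steatohepatitis. All 4 liver groups of 4 received this diet. Lyz2-Cre controls carry the Cre recombinase driven by the myeloid gene Lyz2. The other groups were macrophage knockouts of NFATc3 (NFATc3-MKO), of the stress kinase ASK1 (ASK1-MKO) or of both (MDKO). The cultures were grown for 7 days in 30% L929-conditioned medium, with 3 NFATc3-MKI and 3 ASK1-MKI macrophage knock-in cultures, each beside its own 3 Lyz2-Cre controls. Lyz2 is active in macrophages, monocytes and neutrophils, so in a whole liver most RNA comes from cells in which this Cre is not known to act, and in such bulk samples fewer cells of a type and less RNA per cell cannot be told apart.

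The stem-loop is shown because the genes differ in having it and in how far their annotated transcript runs beyond it. A 6-base stem with a 4-base loop of the histone form was found in 14 of the 18 genes with a paired GENCODE transcript model, and in 0.168% of protein-coding transcript models as a whole. The sites below, from GRCm38 and read 5′ to 3′ on the gene's strand, are those of the 10 histone genes that fell in livers labelled ASK1-MKO, with the stem-loop in capitals.
H1f2, chr13:23739507-23739536, plus strand: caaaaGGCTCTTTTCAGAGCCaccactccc
H1f3, chr13:23555782-23555811, plus strand: caaacGGCTCTTTTCAGAGCCacccacaac
H1f4, chr13:23621773-23621802, minus strand: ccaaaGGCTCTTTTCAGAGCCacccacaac
H2ac6, chr13:23683468-23683497, minus strand: ccaaaGGCTCTTTTCAGAGCCcccactttt
H2ac18, chr3:96246027-96246056, plus strand: aaaaaGGCTCTTTTCAGAGCCacccactga
H3c14, chr3:96247322-96247351, plus strand: acaaaGGCTCTTTTCAGAGCCaccacagct
H3c15, chr3:96238476-96238505, minus strand: acaaaGGCTCTTTTCAGAGCCaccacagct
H4c8, chr13:23531453-23531482, plus strand: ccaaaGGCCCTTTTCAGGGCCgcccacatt
H4c9, chr13:22040957-22040986, minus strand: ttaaaGGCCCTTTTTAGGGCCaccacaaaa
H4c17, chr13:21812124-21812147, plus strand: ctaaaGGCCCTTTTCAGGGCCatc
The H1, H2A and H3 genes printed share one form, the 3 H4 genes have another stem, and H4c9 also differs from the other H4 genes in its loop. The annotated transcript ran on past the stem-loop by 4884 bases in H1f3, 2010 in H2ac6, 1167 in H3c14, 1153 in H1f4 and 840 in H1f2, but by 46 in H4c8, 35 in H2ac18 and 3 in H4c17. In 9 genes this distance was at least 300 bases. No stem-loop of this form was found in the models of H1f0, H2bc4, H2bc21 and the pseudogene H2af-ps2.

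Several of these genes are near copies of others, and the deposited counts cannot always be assigned to one of them. Of all 50-base words in the gene's transcripts, every one in H3c14 and in H2ac19, 89.8% in H4c17, 89.4% in H2ac18 and 63.5% in H3c15 also occurred in another gene. The share was 67.6% in H2af-ps2, 8.5% in H1f2, 2.3% in H1f3, and 0.0% in H1f0 and H2bc21. H1f4 shared 32.0%, most of it with H2bc6, whose annotated span on the same strand overlaps H1f4. H2aw shared 31.5%, all with its overlapping neighbour Trim17. H3c14 shared every such word, H2ac18 89.4% and H3c15 63.5% with the gene model Gm20634.

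The 28 libraries held from 7693464 to 30834547 counts, the shallowest liver (MDKO 3) 8912117. Each of the 4 MDKO livers was closer to the Lyz2-Cre liver of the same number than to any other liver: over abundant genes the median absolute log2 difference was 0.053 to 0.1 in same-numbered pairs, 0.11 to 0.298 in other MDKO and Lyz2-Cre pairs and 0.115 to 0.257 within Lyz2-Cre. These pairs still differed by more than sampling noise, and whether they came from separate mice is not given in the sources used here. Of 16 histone genes compared, 14 were closer within numbers than across them. Each result with Lyz2-Cre is therefore also given without the MDKO livers. Each NFATc3-MKO liver was nearest to a liver of another group. NFATc3-MKO 3 stood furthest off, with MDKO 1 nearest at 0.29 and its own group at 0.324 to 0.389. For all other livers the nearest was at 0.053 to 0.174. NFATc3-MKO 3 had the highest H1f0 and H4c8 of its group. The targeted genes did not follow the labels in whole tissue. Map3k5, which encodes ASK1, averaged 46.2 ± 6.12 CPM (SD, n = 4) in livers labelled ASK1-MKO against 30.9 ± 2.21 in Lyz2-Cre, a log2 difference of 0.58 (edgeR adjusted p = 0.0262). In MDKO livers, Map3k5 averaged 30.5 and Nfatc3 36.6 CPM, against 36.3 for Nfatc3 in Lyz2-Cre. Livers labelled NFATc3-MKO had 28.3 ± 5.78 CPM of Nfatc3 (−0.36, adjusted p = 0.12). In cultures, each targeted gene was called lower in its own knock-in. Nfatc3 was at 80.9 CPM in NFATc3-MKI against 97.2 (−0.26 ± 0.10, edgeR adjusted p = 0.0371). Map3k5 was at 26.9 CPM in ASK1-MKI against 30.1 (−0.16 ± 0.06, edgeR adjusted p = 0.0266). Groups are therefore named by their labels.

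The first question was what these genes did in livers labelled ASK1-MKO, from mice whose macrophages were to lack ASK1. Of 16 histone genes tested there, 10 fell and 1 rose against Lyz2-Cre livers (edgeR quasi-likelihood test, Benjamini-Hochberg adjusted p under 0.05 over all 13309 genes tested). In the whole table, 8.46% of genes were called in this comparison, 4.46% higher and 4.0% lower. The median log2 difference was −1.71 over the 16 histone genes and −0.03 over all genes tested. All 10 that fell have a stem-loop in their transcript model, of 12 such genes tested, whose median was −1.84. Of the 3 tested genes with a model but no stem-loop, none fell and 1 rose (median −0.19). The groups did not overlap, with ASK1-MKO lower, in 11 histone genes and in 8.81% of all genes tested; they did not overlap, with ASK1-MKO higher, in 1 histone gene and in 9.44% of all genes. Without the MDKO livers in the fit, 10 histone genes were called, with H4c17 no longer among them (−1.74, edgeR adjusted p = 0.0513).

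**Figure D1:**
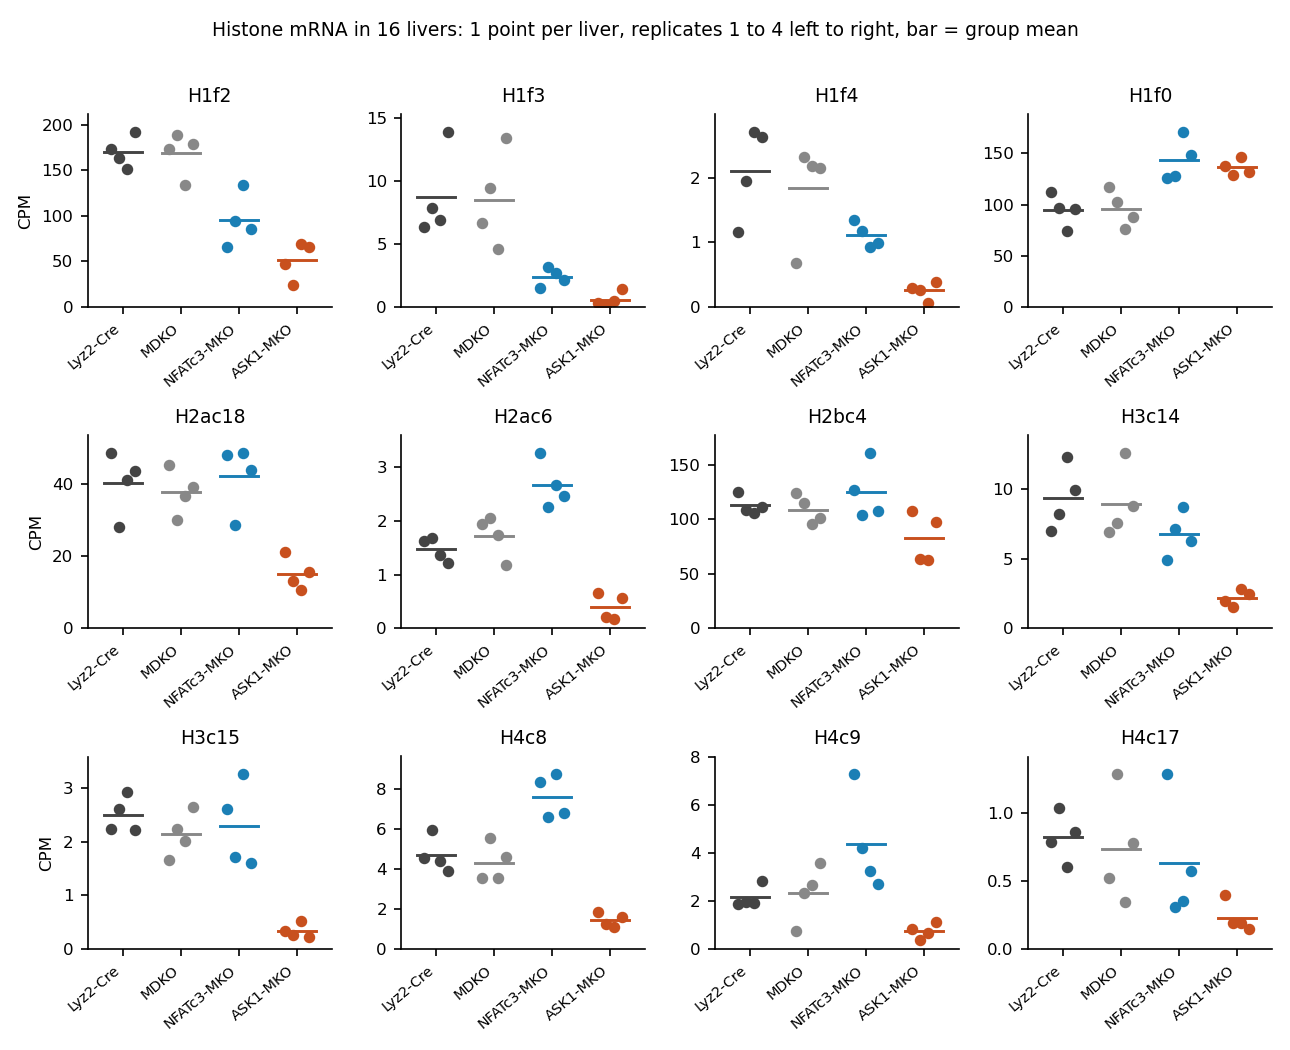
CPM of 12 histone genes in each of 16 livers, 1 point per liver, with bars at the group means; each panel has its own axis from 0. The livers labelled ASK1-MKO lie below all Lyz2-Cre livers in 10 panels, above them in H1f0, and overlap them in H2bc4.

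Among linker histone genes, H1f2 (encoding H1.2) was the histone gene with the highest level per length in Lyz2-Cre livers, at 109 CPM per kilobase of exon, ahead of H2bc4 at 97.6, H2ac18 at 68.8 and H1f0 at 46.1. H1f2 stood at 173, 163, 151 and 192 CPM in the 4 Lyz2-Cre livers and at 46.7, 24.6, 69.4 and 65.8 CPM in those labelled ASK1-MKO. The groups were far apart, and the fall was 1.72 on the log2 scale (−1.72 ± 0.26, SE, edgeR adjusted p = 0.000908). H1f3, which encodes H1.3, was at 6.35, 7.86, 6.92 and 13.9 CPM in Lyz2-Cre and at 0.34, 0.133, 0.476 and 1.42 CPM in ASK1-MKO livers. Its change was the largest of the 16 (−3.90 ± 0.50, edgeR adjusted p = 0.000233). H1f4, encoding H1.4, went from 1.16, 1.95, 2.71 and 2.63 CPM to 0.302, 0.267, 0.068 and 0.395 CPM (−3.02 ± 0.44, edgeR adjusted p = 0.00066). No liver of either group crossed over in these 3 genes.

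H1f0, the linker histone gene of resting cells, differed in direction. It was at 112, 97.1, 73.8 and 95.8 CPM in Lyz2-Cre livers and at 138, 129, 147 and 132 CPM in those labelled ASK1-MKO. All 4 ASK1-MKO livers were above all 4 controls, and H1f0 rose by 0.53 ± 0.15 (edgeR adjusted p = 0.0356). That call was lost without ASK1-MKO 1, 3 or 4 or without Lyz2-Cre 3 or 4, at differences between 0.43 and 0.62 over the 8 omissions and adjusted p up to 0.124.

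The promoters of these 4 genes are printed because 3 linker genes fell together and the fourth did not. They are the 150 bases upstream of each start in RefSeq, GRCm38.p6, read on the gene's strand. Capitals mark the CCAAT box, the TATA box in the form TATAAA, and the motif AAACACA, known as the H1 box, each searched on both strands without overlap among them.
H1f2, chr13:23738657-23738806, plus strand: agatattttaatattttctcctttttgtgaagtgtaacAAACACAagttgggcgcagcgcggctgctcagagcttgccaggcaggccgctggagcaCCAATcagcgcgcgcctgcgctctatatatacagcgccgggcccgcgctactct
H1f3, chr13:23554882-23555031, plus strand: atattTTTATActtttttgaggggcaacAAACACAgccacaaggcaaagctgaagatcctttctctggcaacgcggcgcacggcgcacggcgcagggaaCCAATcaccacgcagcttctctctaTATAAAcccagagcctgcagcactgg
H1f4, chr13:23622559-23622708, minus strand: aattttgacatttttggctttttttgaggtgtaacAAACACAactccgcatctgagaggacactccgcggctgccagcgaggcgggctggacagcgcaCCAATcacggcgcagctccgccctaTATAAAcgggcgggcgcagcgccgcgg
H1f0, chr15:79028062-79028211, plus strand: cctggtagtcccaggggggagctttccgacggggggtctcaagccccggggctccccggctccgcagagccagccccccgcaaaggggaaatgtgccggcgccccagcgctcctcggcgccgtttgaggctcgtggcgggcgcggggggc
H1f2, H1f3 and H1f4 each held an AAACACA (at −112, −122 and −115 from the start) and a CCAAT (at −54, −51 and −52). Neither motif nor TATAAA was in the H1f0 window. The GENCODE model of H1f0 starts at 79028450, beyond the end of that window, so the bases just before that start were not searched. For H1f3 the GENCODE model starts at 23553262, before the window printed. The contrast between these genes therefore holds for the RefSeq starts only. In all RefSeq promoter windows of 300 bases, 37.4% held CCAAT, 13.6% TATAAA and 7.2% AAACACA, and a match of letters is a description, not a site of binding.

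Of the H2A genes, H2ac18 was the most abundant in liver, at 48.6, 28.0, 41.1 and 43.6 CPM in Lyz2-Cre and 21.0, 13.0, 10.7 and 15.6 CPM in ASK1-MKO livers. The 2 groups were apart, and H2ac18 fell by 1.42 (−1.42 ± 0.22, edgeR adjusted p = 0.000998). Its near copy H2ac19 was listed at 0 in 14 of 16 livers, at 2.28 CPM in ASK1-MKO 3 and at 24.8 CPM in NFATc3-MKO 3, and was not tested on its own; with the pair summed, the change was −1.37 (edgeR adjusted p = 0.00281). H2ac6 fell from 1.62, 1.68, 1.36 and 1.22 CPM to 0.65, 0.2, 0.178 and 0.553 CPM (−1.93 ± 0.35, edgeR adjusted p = 0.00273). H2ac25 ranged from 2.27 to 4.14 CPM in Lyz2-Cre and from 2.12 to 3.99 in ASK1-MKO livers, and the groups overlapped (−0.12 ± 0.25).

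None of the 4 H2B genes was called. H2bc4, by far the most abundant of them, was at 125, 109, 106 and 111 CPM in Lyz2-Cre and 108, 63.6, 63.0 and 97.2 CPM in ASK1-MKO livers. ASK1-MKO 1 reached the range of the controls, and the estimate of −0.44 ± 0.18 had an edgeR adjusted p of 0.136. H2bc21 overlapped between groups (−0.19 ± 0.34, mean 1.31 CPM in Lyz2-Cre). H2bc6 and H2bc8, both with a stem-loop and both at or under 0.549 CPM in every liver of these groups, had estimates of −1.32 ± 0.43 and −2.65 ± 0.83 (edgeR adjusted p = 0.0662 and 0.0556).

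Both H3 genes, which encode the replication-dependent protein H3.2, fell. H3c14 was at 6.96, 8.19, 12.3 and 9.91 CPM in Lyz2-Cre and at 1.94, 1.54, 2.84 and 2.42 CPM in ASK1-MKO livers (−2.10 ± 0.25, edgeR adjusted p = 0.000182). H3c15 was at 2.23, 2.6, 2.92 and 2.21 CPM against 0.329, 0.255, 0.523 and 0.227 CPM (−2.85 ± 0.30, edgeR adjusted p = 7.69e-05). Every control was above every ASK1-MKO liver in both, but H3c15 met the level through the other groups alone, so its difference is a description. Since their reads cannot be separated fully, H3c14, H3c15 and H3c13 were also summed, and the sum fell by 2.23 (−2.23 ± 0.23, edgeR adjusted p = 4.7e-05).

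The 3 H4 genes fell as well. H4c8 was at 4.53, 5.93, 4.38 and 3.89 CPM in Lyz2-Cre and at 1.83, 1.23, 1.09 and 1.62 CPM in ASK1-MKO livers (−1.71 ± 0.21, edgeR adjusted p = 0.000213). H4c9 went from 1.89, 1.96, 1.92 and 2.85 CPM to 0.832, 0.367, 0.68 and 1.11 CPM (−1.53 ± 0.43, edgeR adjusted p = 0.0362). H4c17 went from 0.787, 1.04, 0.606 and 0.862 CPM to 0.4, 0.189, 0.193 and 0.145 CPM (−1.74 ± 0.50, edgeR adjusted p = 0.0395). In all 3 genes each control was above each ASK1-MKO liver, and the difference of H4c17, like that of H3c15, is a description. The calls of H4c9 and H4c17 were each lost in 7 of the 8 fits that left out a single liver, with adjusted p up to 0.116 and 0.11, whereas the other 8 calls of a fall held in all 8 omissions.

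**Figure D2:**
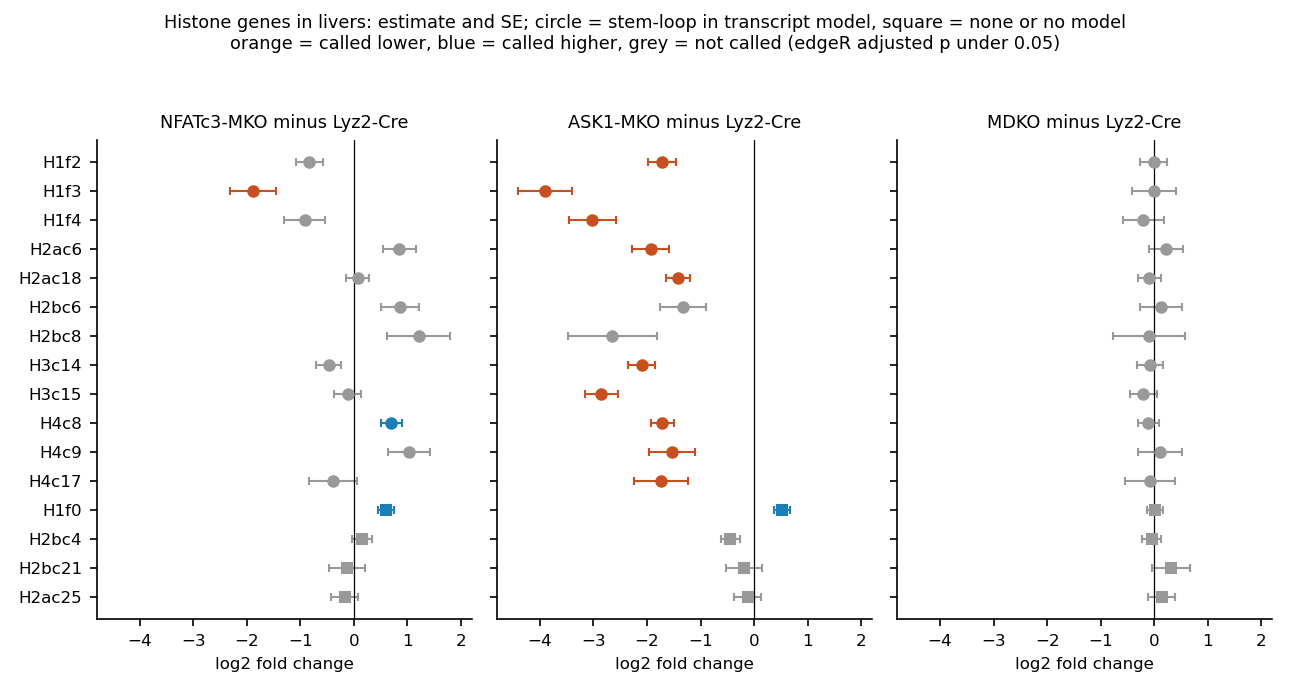
Log2 fold changes against Lyz2-Cre livers with standard errors for the 16 histone genes tested; circles have a stem-loop in the transcript model, squares have none or no model. Calls at edgeR adjusted p under 0.05 are orange when lower and blue when higher: 10 orange and 1 blue for ASK1-MKO, 1 and 2 for NFATc3-MKO, none for MDKO.

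Summed over the 13 stem-loop genes with a row in the liver table, Lyz2-Cre livers held 242 ± 23.7 CPM and those labelled ASK1-MKO 73.6 ± 22.2 (SD, n = 4). The 3 genes without a stem-loop summed to 209 ± 23.5 and 221 ± 23.2 CPM. The first pair of ranges was apart, 223 to 274 against 42.0 to 89.6 CPM, and the second overlapped. Single genes dominate both sums. In the first, H1f2 alone averaged 169 CPM in Lyz2-Cre and 51.6 CPM in ASK1-MKO livers. In the second, H1f0 averaged 94.7 and 136 CPM and H2bc4 113 and 83.0 CPM, so opposite differences are added together.

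Genes that make or handle histone mRNA were almost all without a call in this comparison. Of 20 tested factors of histone pre-mRNA processing and transcription, edgeR called 0 (4 at an unadjusted p under 0.05, 1 by DESeq2). Slbp, which binds the stem-loop, was at 13.3 ± 1.13 CPM in ASK1-MKO and 12.9 ± 0.618 in Lyz2-Cre livers, and Npat, the coactivator of histone loci, at 8.73 ± 0.933 and 6.59 ± 2.04. Of 9 replacement-variant histone genes, whose mRNAs carry a tail, edgeR called 0 (2 unadjusted, 2 by DESeq2), with a median of −0.03. Of 26 S phase genes and 20 genes of G2 and mitosis, edgeR called 0 in each list (5 unadjusted in each, 2 and 0 by DESeq2), with medians of 0.20 and 0.42. Of 18 histone chaperone genes, only Ubn1, a subunit of the HIRA complex, was called (0.57 ± 0.16, edgeR adjusted p = 0.0368).

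Erythroid markers moved in the same comparison. Alas2, whose product starts heme synthesis in erythroid cells, was at 15.2 ± 1.93 CPM in ASK1-MKO and 31.8 ± 3.47 in Lyz2-Cre livers (−1.07 ± 0.13, edgeR adjusted p = 0.000227) and the beta-globin gene Hbb-bs at 64.2 ± 19.5 and 110 ± 19.3 CPM (−0.78 ± 0.23, edgeR adjusted p = 0.0467). Both fell, as 2 of 6 tested genes of 8 listed, none at 0 in all livers, and the list's summed level ran from 130 to 255 CPM in ASK1-MKO and from 264 to 405 in Lyz2-Cre livers. The haematopoietic progenitor list had no call among 3 tested of 8 (edgeR), with sums of 9.6 to 11.9 against 12.5 to 13.5 CPM. In MDKO livers the erythroid sum was 218 to 385 CPM and in NFATc3-MKO livers 297 to 480. The part of these cells in the histone result was not tested. Of the other marker lists, the hepatocyte list had 1 call, Pck1, which rose (1.27 ± 0.34, edgeR adjusted p = 0.0281).

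The second question concerned livers labelled NFATc3-MKO. There, 2 of 16 histone genes rose and 1 fell against Lyz2-Cre livers, where edgeR called 8.45% of all 13309 genes, 3.77% higher and 4.67% lower. The histone median was −0.03 and that of all genes 0.03. H1f3 fell, from the 6.35 to 13.9 CPM given above to 1.48, 3.14, 2.74 and 2.17 CPM, with no overlap (−1.88 ± 0.43, edgeR adjusted p = 0.0166). H1f0 rose to 126, 128, 171 and 149 CPM, above all 4 controls (0.60 ± 0.15, edgeR adjusted p = 0.0229). H4c8 rose to 8.34, 6.58, 8.75 and 6.8 CPM, again above every control (0.70 ± 0.19, edgeR adjusted p = 0.0362).

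Each of these calls depended on single livers. H1f3 was lost without Lyz2-Cre 4 (adjusted p = 0.0659), H1f0 in 3 and H4c8 in 5 of 8 single omissions, with adjusted p up to 0.0923 and 0.115, and without Lyz2-Cre 4 none of the 16 was called. Without the MDKO livers, edgeR called 3. H1f2 was at 66.3, 94.2, 134 and 85.9 CPM, below all controls, but was not called (−0.83 ± 0.26, edgeR adjusted p = 0.0528). H2ac6, at 3.27, 2.26, 2.67 and 2.47 CPM, lay above all controls and was not called (0.85 ± 0.30, edgeR adjusted p = 0.0854). NFATc3-MKO and Lyz2-Cre livers were fully apart in 6 histone genes, 2 lower and 4 higher, against 7.01% and 5.79% of all genes tested.

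In the NFATc3-MKO comparison, 5 of 26 S phase genes fell, among them Mcm4 (−0.97 ± 0.15, edgeR adjusted p = 0.00295), a subunit of the replicative helicase, and Uhrf1 (−1.19 ± 0.22), which maintains DNA methylation at replication. The S phase sum was 225 to 275 CPM against 267 to 334 in Lyz2-Cre. Of the 20 processing factors 2 fell, Lsm11 of the U7 snRNP (−0.50 ± 0.15, edgeR adjusted p = 0.0447) and Upf1, a helicase of mRNA decay (−0.46 ± 0.11). Among cell markers, neutrophil S100a8 and S100a9 (2 of 4 tested) and plasma cell Jchain and Igkc (2 of 5) rose. So did Spp1, alone of 8 genes of monocytes and lipid-associated macrophages, and the epithelial gene Epcam, alone of 6 bile duct genes. Of 12 general macrophage genes edgeR called 0. Hnf4a and Ass1 of hepatocytes (2 of 12), C6 and Clec4f of Kupffer cells (2 of 7) and Clec4g and Fcgr2b of sinusoidal endothelium (2 of 8) fell. The neutrophil sum was 7.44 to 43.8 CPM against 2.77 to 11.2 in Lyz2-Cre, and the hepatocyte sum 89075 to 135432 against 120512 to 156805. The part of these cells in the histone values was not tested.

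Both single knockouts were also compared with each other directly. Of the 16 histone genes, 12 were higher in livers labelled NFATc3-MKO than in those labelled ASK1-MKO and 0 were lower, where edgeR called 12.8% of all genes, 7.15% higher and 5.61% lower. The median was 1.83, against 0.02 over all genes. H4c8 differed by 2.41 ± 0.21 (edgeR adjusted p = 4.43e-06), H2ac6 by 2.78 ± 0.34 (9.22e-05) and H3c15 by 2.73 ± 0.30 (3.44e-05). H3c15 itself was at 2.6, 1.72, 3.26 and 1.6 CPM in NFATc3-MKO livers. It met the level through groups other than ASK1-MKO, so its difference here is a description too. H2bc6 (2.18 ± 0.40), H2bc8 (3.86 ± 0.75) and H2bc4 (0.59 ± 0.18, edgeR adjusted p = 0.0382) were called here though not against Lyz2-Cre. H2bc6 and H2bc8 averaged only 0.598 and 0.844 CPM in livers labelled NFATc3-MKO. H2bc4 and H1f2 overlapped between these groups, and without the MDKO livers in the fit neither was called (edgeR adjusted p = 0.06 and 0.0581). H1f0 differed by 0.07 ± 0.15 (95% interval −0.21 to 0.36).

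Markers of other cells differed in the same comparison. In livers labelled NFATc3-MKO, 5 of 6 tested erythroid genes were higher, with sums of 297 to 480 CPM against 130 to 255 in those labelled ASK1-MKO. All 4 tested neutrophil genes were higher (sums of 7.44 to 43.8 against 1.58 to 4.54 CPM), as were 6 of 8 genes of monocytes and lipid-associated macrophages (124 to 847 against 85.6 to 187 CPM). Of 26 S phase genes 11 were lower, with sums of 225 to 275 against 313 to 357 CPM. The part of these in the histone values was not tested.

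In MDKO livers, 0 of 16 histone genes were called against Lyz2-Cre (edgeR; 0 at an unadjusted p under 0.05, 0 by DESeq2), and so were 0.0% of all 13309 genes (35 unadjusted). H1f2 was at 173, 189, 134 and 179 CPM, H1f3 at 6.66, 9.45, 4.61 and 13.4 CPM and H3c14 at 6.9, 7.59, 12.6 and 8.75 CPM. These spread over much the same range as in Lyz2-Cre livers. The estimates of the 16 ran from −0.20 ± 0.38 (H1f4) to 0.31 ± 0.35 (H2bc21). With the number of the pair as a block, and these 2 groups alone, 0 of 12746 genes were called (186 unadjusted). The SE of H1f0 was 0.06 in that fit and 0.15 in the fit of all 16 livers, which did not use the pairs.

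Against ASK1-MKO, 9 histone genes were higher in MDKO livers and H1f0 was lower, where 7.72% of all genes were called, 3.46% higher and 4.26% lower. H1f3 was higher by 3.89 ± 0.50 and H3c15 by 2.66 ± 0.30. The H3c15 value is a description, since that gene met the level through groups other than ASK1-MKO. Against NFATc3-MKO, H1f3 was higher (1.86 ± 0.44, edgeR adjusted p = 0.0182) and H1f0 and H4c8 were lower (−0.58 ± 0.15 and −0.81 ± 0.20), where 7.35% of genes were called, 4.06% higher and 3.29% lower. Of these 3 calls none was made without MDKO 4 and 1 without MDKO 3. All 3 comparisons use the MDKO livers, which lay near the Lyz2-Cre livers of their number.

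Whether the change between MDKO and NFATc3-MKO differed from that between ASK1-MKO and Lyz2-Cre was tested with an interaction term. It was called in 9 of 16 histone genes, 8 higher and H1f0 lower, and in 16.2% of all genes, 8.17% higher and 8.0% lower. H1f3 had the largest term (5.77 ± 0.66, edgeR adjusted p = 8.94e-05), followed by H1f4 (3.74 ± 0.59). H2ac6 (1.3 ± 0.46, edgeR adjusted p = 0.0631), H4c9, H2ac25 and the 4 H2B genes were not called. H3c15 and H4c17, among the 8, met the level through groups other than ASK1-MKO, so their terms are descriptions. MDKO estimates against Lyz2-Cre ran only from −0.20 to 0.31. The term therefore mostly repeats the single-knockout changes, added together with the sign turned. In H1f3 these were −3.90 in ASK1-MKO and −1.88 in NFATc3-MKO.

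The histone genes with deposited counts were not the same in livers and cultures. H3c14 was at 0 in all 12 cultures, and H2ac18 at 0 in 11 of 12 with 0.115 CPM in NFATc3-MKI 3, while both exceeded 1 CPM in every liver. Reads of such near copies cannot be assigned to 1 gene, and both genes share most of their sequence with the gene model Gm20634. The liver values are estimated counts and the culture values raw counts. Whether counting or expression gave these zeros was not tested. H1f0 led in the NFATc3-MKI set (220 CPM per kilobase in its controls), and H2bc4 (17.0 CPM per kilobase), H1f0 (13.8) and H1f2 (13.7) stood first in the controls of the ASK1-MKI set.

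The 2 sets of cultures also differ in the cells they held by marker genes, so levels are not compared between them. In the NFATc3-MKI set the complement genes C1qa, C1qb and C1qc were at 0 in all 6 cultures, Adgre1 was at 30.0 to 36.2 CPM, and 12 macrophage markers summed to 1703 to 2618 CPM. In the ASK1-MKI set that sum was 35535 to 39885 CPM, with Adgre1 from 2673 to 3329. Genes of G2 and mitosis summed to 2390 to 3213 CPM in the first set and to 97.9 to 640 in the second.

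**Figure D3:**
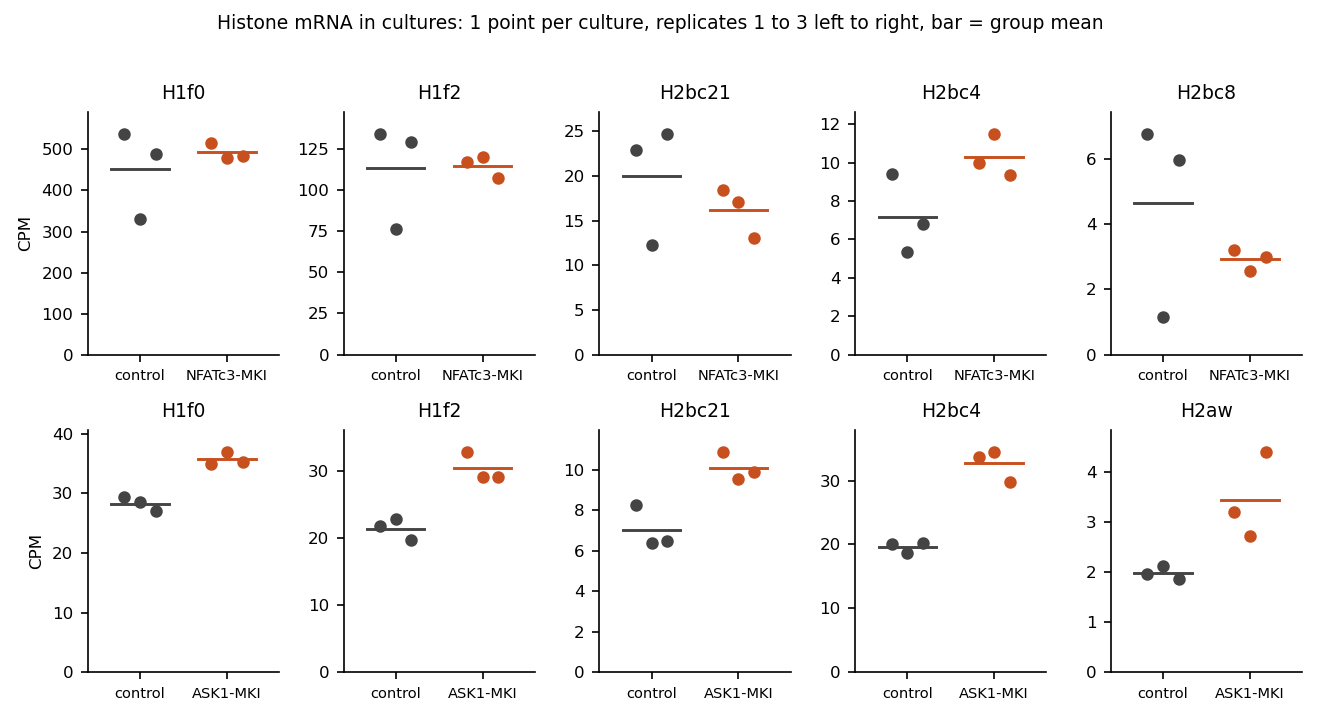
CPM of histone genes in each of 12 cultures, 1 point per culture, with bars at the group means and axes from 0; the upper row is the NFATc3-MKI set and the lower row the ASK1-MKI set. In the upper row control 2 is the lowest control in every panel; in the lower row all 3 ASK1-MKI cultures lie above all 3 controls.

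In ASK1-MKI cultures, 5 of 7 histone genes tested rose and 0 fell, where edgeR called 49.1% of all 11380 genes tested, 24.6% higher and 24.5% lower. The histone median was 0.51 and that of all genes 0.00. H2bc4 was at 33.7, 34.5 and 29.8 CPM in ASK1-MKI and 20.0, 18.7 and 20.2 CPM in control cultures (0.73 ± 0.07, edgeR adjusted p = 3.09e-18). H1f2 was at 32.9, 29.1 and 29.2 CPM against 21.8, 22.8 and 19.7 (0.51 ± 0.07, edgeR adjusted p = 1.7e-10). The replicates were tight, and neither gene overlapped between groups. The common coefficient of variation fitted by edgeR was 0.021 in this set, 0.089 in the NFATc3-MKI set and 0.208 in the livers. The p-values here measure only that spread between samples.

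H1f0 was at 35.0, 37.0 and 35.2 CPM against 29.4, 28.5 and 27.0 (0.34 ± 0.06, edgeR adjusted p = 9.1e-07). H2bc21 was at 10.9, 9.55 and 9.89 CPM against 8.26, 6.39 and 6.47 (0.52 ± 0.12, edgeR adjusted p = 6.59e-05). H2aw, an H2A gene, was at 3.2, 2.72 and 4.41 CPM against 1.97, 2.13 and 1.86 (0.79 ± 0.21, edgeR adjusted p = 0.000646). All 5 calls held when any single culture was left out. H2bc8 (0.35 ± 0.33) and H4c9 (−0.34 ± 0.32) were near 1 CPM and their groups overlapped. Of the genes that rose, H1f0, H2bc4 and H2bc21 have no stem-loop in their model and H1f2 and H2aw have one.

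Genes of cell division went the other way in these cultures. Of 25 S phase genes 23 fell, with a median of −0.72, and all 20 genes of G2 and mitosis fell, with a median of −3.02. Rrm2, a subunit of ribonucleotide reductase, went from 31.6 ± 0.594 to 4.34 ± 0.562 CPM (−2.86 ± 0.10, edgeR adjusted p = 1.18e-56), and the proliferation marker Mki67 from 189 ± 3.71 to 22.0 ± 0.636 CPM (−3.11 ± 0.04, edgeR adjusted p = 4.07e-101). Of 9 replacement variants 6 fell and 2 rose: the centromere variant Cenpa changed by −2.46 ± 0.13, H2afz by −0.39 ± 0.03, and H3f3b by 0.13 ± 0.02. Among 18 chaperone genes 9 fell and 3 rose, led by Asf1b (−1.38 ± 0.11), the form of this H3-H4 chaperone found in dividing cells. Of 21 processing factors 5 rose and 4 fell, with differences between −0.42 and 0.29 over the list and Slbp at −0.16 ± 0.06 (edgeR adjusted p = 0.0105).

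**Figure D4:**
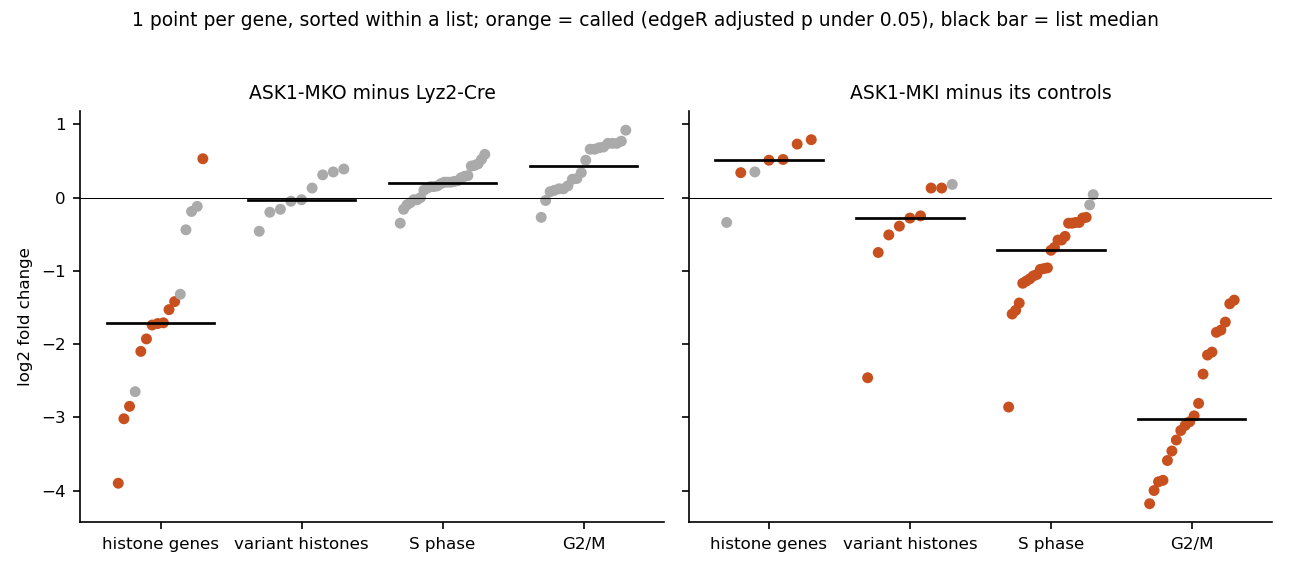
Log2 fold changes of single genes, sorted within 4 lists, in livers labelled ASK1-MKO and in ASK1-MKI cultures; orange points are called at edgeR adjusted p under 0.05 and black bars are list medians. The histone median is −1.71 in livers, beside 0.20 for S phase and 0.42 for G2/M genes, and 0.51 in cultures, beside −0.72 and −3.02.

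Markers of other cells changed in the ASK1-MKI set too. All 6 tested haematopoietic progenitor genes (of 8 listed) fell, with sums of 1.5 to 1.91 CPM against 20.5 to 22.3, and 3 of 4 tested neutrophil genes fell, with sums of 288 to 300 CPM against 1194 to 1241. All 4 tested Kupffer cell genes fell, with sums of 292 to 313 CPM against 888 to 913, while 9 of 12 macrophage genes rose and 2 fell, with sums of 37938 to 39885 against 35535 to 37866. Of 12 tested mitochondrial genes 8 fell, with sums of 19926 to 20749 CPM against 22159 to 22382. Their part in the histone values was not tested.

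In NFATc3-MKI cultures edgeR called 0 of 10 histone genes (1 at an unadjusted p under 0.05, 0 by DESeq2), in a table where it called 33.3% of 13363 genes. In H1f0, H1f2 and H2bc8, control 2 was well below the other controls. It was also lowest in the sum over all histone genes, most of it H1f0, at 735, 435 and 673 CPM in control order. The stem-loop genes, most of it H1f2, summed to 156, 84.2 and 148 CPM. H1f4 was lowest in control 1, at 0.797 CPM. H1f0 was at 538, 331 and 488 CPM in the controls and 515, 480 and 483 CPM in NFATc3-MKI. H1f2 was at 134, 76.2 and 129 CPM in the controls and 117, 120 and 107 CPM in NFATc3-MKI, and H2bc8 at 6.78, 1.16 and 5.99 against 3.21, 2.58 and 3.0 CPM. In these 3 genes the knock-in cultures lay within the range of the controls.

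H2bc4 came nearest to a call, at 9.99, 11.5 and 9.34 CPM against 9.43, 5.34 and 6.81 (0.53 ± 0.21, edgeR adjusted p = 0.0508). Without control 2, H2bc8 (−1.12 ± 0.27, adjusted p = 0.00415) and H2bc21 (−0.55 ± 0.16, adjusted p = 0.0138) were called lower, and H2bc4 was at 0.35 ± 0.22. Without control 1, H2bc4 (0.76 ± 0.23, adjusted p = 0.0124) and H2af-ps2 (0.89 ± 0.30, adjusted p = 0.0264) were called higher. H2af-ps2 was the most abundant H2A entry, but 65.5% of its 50-base words also occur in H2ac19, so its reads may belong to other genes. It was at 7.97, 7.42 and 5.42 CPM against 8.24, 2.32 and 5.17 with all cultures kept. H4c9 was at 3.93, 3.65 and 3.46 CPM against 5.58, 1.51 and 3.99. The knock-in cultures lay within the range of the controls in both. H1f3, H1f4, H2ac6, H2ac19, H2aw and H2bc6 were at or under 2.52 CPM in every culture of this set.

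In the same cultures the variant histone genes moved in both directions, 3 higher and 4 lower of 8, with H3f3b at 0.77 ± 0.10 (edgeR adjusted p = 4.99e-06) and H2afv at −0.61 ± 0.11. Of 26 S phase genes 4 rose and 2 fell, and 5 of 20 genes of G2 and mitosis fell, led by Cenpf (−1.04 ± 0.11). Of the processing factors 1 rose and 5 fell, among them Hinfp (−0.55 ± 0.09), a factor that binds H4 promoters. Nuclear Malat1, a transcript without a canonical tail, fell from 5211 ± 717 to 3162 ± 380 CPM (−0.72 ± 0.11, edgeR adjusted p = 2.5e-05), whereas Neat1 was at 0.18 ± 0.18. No gene of that list was among those tested in the livers or in the ASK1-MKI set, so how far capture of untailed RNA differed between those libraries was not tested.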

How the data were processed

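mRNA was purified on beads and dUTP libraries that keep the strand were made, per the labels' protocols. The authors aligned reads with HISAT2 to mm10, per the submitters' processing notes; the sources used here name no counting program or strand setting. The authors deposited estimated counts for livers (85.42% of values whole), which were rounded here; both culture tables hold raw counts deposited by the authors. CPM is the count scaled by the library total times the TMM factor.

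Each table was fitted alone with edgeR 4.0.16 (R 4.3.3; filterByExpr, TMM, robust quasi-likelihood test, Benjamini-Hochberg over all genes kept), all 16 livers in one fit; the code was tested on simulated counts. DESeq2 1.42.0 was an alternative, with others listed for filter, threshold, replicate block and omitted libraries. Histone genes, lists and tests were chosen with earlier results of these data known. Values in every library are given for genes called against controls and for the most abundant gene of each class; of the other lists, mainly called genes are named, and Slbp, Npat, Neat1 and a few others were named for their role after their values were seen. Where labels do not name separate animals or cultures, p-values measure only the spread between samples. Same-numbered MDKO and Lyz2-Cre livers deviated together (correlation 0.24 to 0.53). They were taken as paired only in fits with a replicate block, and the main fit had none. Same-numbered ASK1-MKO and NFATc3-MKO livers had correlations of 0.04 to 0.2. Between the other liver groups values of both signs occurred, the highest 0.56 for Lyz2-Cre 2 and NFATc3-MKO 2. Gene models are GENCODE vM21, promoters RefSeq. Intervals of log2 changes come from the fitted standard errors.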

Additional observations from a re-analysis of the deposited data

Results flagged for a closer look

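Within groups of 4 livers, a single liver stood far from the other 3 in 6 of 66 cases examined. The rule marks about 1 in 20 independent groups by chance; these cases share livers and near copies, so the counts are not set against that rate. H1f4 was at 0.684 CPM in MDKO 1 against 2.16 to 2.33 in the other MDKO livers. H2ac19 was at 2.28 CPM in ASK1-MKO 3 and at 24.8 CPM in NFATc3-MKO 3, with 0 in the other livers of each group. H2bc6 was at 0.282 CPM in ASK1-MKO 4 against 0.0688 to 0.101, H2bc8 at 1.93 CPM in NFATc3-MKO 1 against 0.319 to 0.58, and H4c9 at 2.85 CPM in Lyz2-Cre 4 against 1.89 to 1.96.

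The change from NFATc3-MKO to MDKO differed from that from Lyz2-Cre to ASK1-MKO, by an interaction term of edgeR over all livers, in 9 genes. The log2 differences were 5.77 in H1f3, 3.74 in H1f4, 2.77 in H3c15, 2.54 in H1f2, 2.48 in H3c14, 2.05 in H4c17, 1.26 in H2ac18, 0.90 in H4c8 and −1.10 in H1f0, with adjusted p from 8.94e-05 (H1f3) to 0.0492 (H4c17). All rest on MDKO livers that lay near the Lyz2-Cre livers of the same number. H3c15 and H4c17 met the level through groups other than ASK1-MKO, so their terms are descriptions.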

How the results depend on the processing

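Among 451 alternative values no called change turned its direction. Uncalled values near 0 did change sign: with single libraries left out, the log2 ratio of the histone sum ran from −0.07 to 0.05 in MDKO and from −0.17 to 0.03 in NFATc3-MKO, both to Lyz2-Cre, and from −0.1 to 0.24 in NFATc3-MKI to its controls. Without control 2, H1f0 went from 0.12 to −0.06 and H4c9 from 0.01 to −0.37 in NFATc3-MKI. Of 252 values of single genes, 31 lost their call: 19 in ASK1-MKO against Lyz2-Cre, in H1f0, H4c9 and H4c17, and 12 in NFATc3-MKO against Lyz2-Cre. The count of 11 called genes in ASK1-MKO was 8 to 10 with single livers left out. The count of 3 in NFATc3-MKO was 5 by DESeq2, 5 at an adjusted p under 0.1, 1 with only those 2 groups fitted and 0 to 3 with single livers left out; that of 3 between MDKO and NFATc3-MKO was 1 and 0 to 3 in the last 2 settings. For MDKO against ASK1-MKO the omissions gave 8 to 10, for NFATc3-MKO against ASK1-MKO 10 to 12, and for the interaction 7 to 10. The count of 0 in NFATc3-MKI was 1 without a filter, 1 at an adjusted p under 0.1 and 0 to 2 with single cultures left out. The cause of these changes was not tested. With the replicate number as a block, the count in NFATc3-MKO against Lyz2-Cre was 5, and no other count moved by more than 1.5 times. The labels give those groups a shared number only, and same-numbered livers had correlations of −0.21 to 0.56. With levels of 2 and 0.5 CPM, 16 and 28 genes met the rule. Depth limits genes near 1 CPM, which rest on few reads a library.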
